A study of Homo sapiens with 9 samples.

Results

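HepG2 is an established human liver cancer line. In these cells the genes for 9 proteins that liver secretes into plasma were followed through peak lists of the SWI/SNF chromatin remodeling complex. They were ALB, AFP, TF, TTR, SERPINA1, AHSG, FGA, FGB and FGG, chosen by name for being liver-secreted, and a peak belonged to a gene when the deposited list named that gene as nearest. Of 34575 ARID peaks, 35 were assigned to 8 of the 9 genes, among 12428 gene names with an assigned peak.

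Chromatin of untreated HepG2 cells was immunoprecipitated with antibodies against ARID1A, ARID1B, ARID2 or SNF5 and sequenced (ChIP-seq). Each of the 4 antibodies had 2 replicate libraries, which the authors merged before peak calling, and 1 input library was not analysed here. SNF5 had the longest list, with 20718 peaks, followed by ARID2 with 12995, ARID1A with 12852 and ARID1B with 8728. Because each list came from merged replicates and carried no read counts, replicate error and depth were unknown, no test between subunits was made, and the absence of a peak says only that none was called.

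SWI/SNF uses ATP to move or evict nucleosomes. SNF5 is a core subunit, whereas ARID1A and ARID1B are alternative subunits of the BAF form and ARID2 belongs to the PBAF form. Hepatocytes make most plasma proteins, and the promoters of these genes are classic targets of liver-enriched factors of the HNF1, HNF4, FOXA and C/EBP families. HepG2 cells are known for secreting many of these proteins, including alpha-fetoprotein, which the fetal liver makes and the adult liver largely stops making. Expression was not measured in the lists, so the labelled cell type could not be checked against marker levels.

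The stretches below carry the regions to which the results return. The first set holds DNA shared by peaks of different ARIDs at TF, ALB and SERPINA1. At AHSG it holds the joined span of the overlapping ARID peaks up to the start, of which only a part is shared. Sequences are from GRCh37, the assembly also called hg19, on the strand of the gene, 5′ to 3′, and are trimmed so that no transcribed base downstream of the start is shown. Capitals mark matches, on either strand, to 7 short motifs: TATAAA (the core promoter box bound by TBP), GTTAAT (HNF1), TTGCNNAA (C/EBP), TGTTTAC (FOXA), the related TGTTTGC (also FOXA), AAAGTCCA (HNF4) and TGANTCA (AP-1).
AHSG promoter region, chr3:186330605-186330848, plus strand: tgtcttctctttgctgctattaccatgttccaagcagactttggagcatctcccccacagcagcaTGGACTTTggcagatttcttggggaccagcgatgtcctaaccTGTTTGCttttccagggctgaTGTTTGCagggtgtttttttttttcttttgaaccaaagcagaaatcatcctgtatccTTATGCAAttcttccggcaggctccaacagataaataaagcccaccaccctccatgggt
TF promoter, chr3:133465152-133465236, plus strand: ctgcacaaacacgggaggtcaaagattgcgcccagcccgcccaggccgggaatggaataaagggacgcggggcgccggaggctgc
ALB distal region, chr4:74240987-74241110, plus strand: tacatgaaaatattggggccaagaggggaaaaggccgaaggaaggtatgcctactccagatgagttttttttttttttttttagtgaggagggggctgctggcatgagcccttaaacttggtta
SERPINA1 upstream region, chr14:94862195-94862364, minus strand: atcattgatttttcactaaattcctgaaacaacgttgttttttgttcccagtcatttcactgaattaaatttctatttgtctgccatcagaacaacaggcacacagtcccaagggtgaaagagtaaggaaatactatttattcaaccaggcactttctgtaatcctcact

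The second set is from AFP. It holds the first 300 bases of an upstream ARID1A peak, an ARID2 peak that lies a little nearer to the gene, and the 250 bases before the AFP start, which sit in the window chr4:74301688-74301987. The last of these is the RefSeq promoter of build GRCh38.p14, whose letters occurred once in GRCh37.
AFP upstream ARID1A peak, chr4:74297964-74298263, plus strand: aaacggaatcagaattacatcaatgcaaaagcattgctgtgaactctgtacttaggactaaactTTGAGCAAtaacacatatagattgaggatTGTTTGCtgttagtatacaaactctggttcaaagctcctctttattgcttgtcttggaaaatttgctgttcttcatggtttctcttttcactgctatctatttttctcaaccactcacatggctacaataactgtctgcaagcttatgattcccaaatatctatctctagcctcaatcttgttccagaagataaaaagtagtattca
AFP upstream ARID2 peak, chr4:74298749-74298952, plus strand: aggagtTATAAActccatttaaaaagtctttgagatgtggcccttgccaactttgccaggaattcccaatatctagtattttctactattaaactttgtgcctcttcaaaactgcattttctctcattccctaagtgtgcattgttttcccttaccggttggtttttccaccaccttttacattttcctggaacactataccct
AFP promoter, plus strand: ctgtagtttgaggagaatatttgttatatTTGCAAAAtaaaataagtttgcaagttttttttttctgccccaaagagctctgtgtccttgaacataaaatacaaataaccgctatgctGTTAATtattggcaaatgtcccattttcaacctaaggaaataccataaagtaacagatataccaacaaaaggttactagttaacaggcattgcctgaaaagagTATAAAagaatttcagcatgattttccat

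The third set is from the ARID1B peaks upstream of FGA, numbered from the gene outwards. Peak 1 lies beside the promoter, and peaks 2 and 4 belong to a run several kilobases away. In peak 1 the FOXA match and the C/EBP match share bases.
FGA peak 1, chr4:155512058-155512292, minus strand: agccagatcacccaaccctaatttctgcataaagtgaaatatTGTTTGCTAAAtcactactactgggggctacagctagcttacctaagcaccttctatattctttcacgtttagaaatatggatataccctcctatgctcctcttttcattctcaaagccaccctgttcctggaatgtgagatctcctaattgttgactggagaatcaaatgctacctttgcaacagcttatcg
FGA peak 2, chr4:155518547-155518598, minus strand: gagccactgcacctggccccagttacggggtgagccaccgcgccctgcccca
FGA peak 4, chr4:155519359-155519441, minus strand: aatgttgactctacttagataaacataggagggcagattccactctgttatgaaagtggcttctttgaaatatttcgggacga

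The ARIDs were spread unevenly over the plasma protein genes. ARID1B had 15 of the 35 peaks (42.9%), where ARID1B peaks were 25.2% of all ARID peaks. ARID1A had 11 peaks and ARID2 had 9. This order rested on the fibrinogen genes. Without them, an alternative chosen after seeing the data, ARID1B had 8 of 28 peaks (28.6%), ARID1A 11 and ARID2 9. Without ALB and AFP, ARID1A had 7, ARID1B 13 and ARID2 2 of 22 peaks. An ARID1B peak was assigned to 8 of the 9 genes, every one but TTR, against 16.0% of 20136 protein-coding genes. An ARID1A peak was assigned to 4 genes (AFP, TF, SERPINA1 and AHSG; 31.1% of protein-coding genes). ARID2 peaks were likewise assigned to 4 genes (ALB, AFP, TF and AHSG; 27.7%). A peak of any ARID was assigned to 40.8% of protein-coding genes. These background shares also count genes that HepG2 cells do not express, where the authors reported very little ARID binding. These genes are not independent, since ALB and AFP are neighbours and the 3 fibrinogen genes form 1 cluster. Counted by locus, ARID1B peaks were found at 5 of 6 loci, ARID1A peaks at 4 and ARID2 peaks at 3.

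AFP, TF and AHSG each had peaks of all 3 ARIDs (3 of 9 genes, where the share among protein-coding genes was 9.42%). The fibrinogen genes FGA, FGB and FGG had ARID1B as their only ARID (3 of 9 genes, against 2.86%). At least 4 peaks of a single list were assigned to AFP, SERPINA1 and FGA (3 of 9 genes, against 3.05%). Among gene names with a peak in the list concerned, 3.06% had as many ARID2 peaks as AFP (5), 4.68% as many ARID1A peaks as SERPINA1 (4) and 2.72% as many ARID1B peaks as FGA (5).

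**Figure D1:**
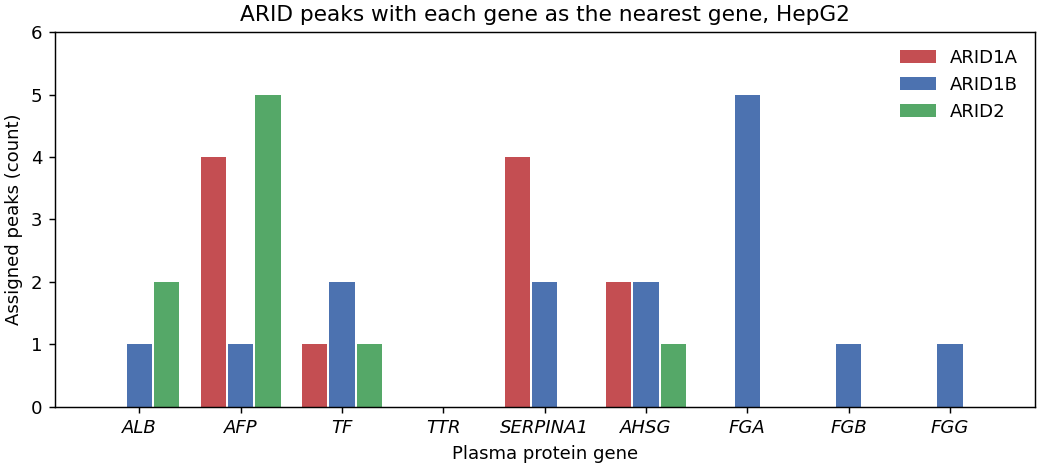
Bars give the number of assigned peaks (y axis, count) of ARID1A, ARID1B and ARID2 for each of the 9 genes (x axis). AFP carried 4 ARID1A and 5 ARID2 peaks but 1 ARID1B peak, FGA carried 5 ARID1B peaks and no other, and TTR carried none.

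Among the carriers, albumin (ALB) is the main protein of plasma and binds fatty acids, hormones and drugs. Its start, that of the MANE Select transcript, lies at chr4:74270004 on the plus strand. No ARID peak lay close to it. The nearest ARID2 peak was 13.1 kb away, and the nearest ARID1A and ARID1B peaks were 26.7 kb and 28.3 kb away. SNF5 came nearer, with a peak starting 1704 bp downstream (343 bp wide, score 16).

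The ALB peaks fell into a shared distal region and an isolated intronic peak. An ARID1B peak of 335 bp (chr4:74240829-74241163) and an ARID2 peak of 149 bp (chr4:74240987-74241135) overlapped upstream, 28841 and 28869 bp from the start. A SNF5 peak of 256 bp with a score of 25 covered 124 bp of the overlap. Those bases are the ALB distal stretch printed above, which has a run of 18 T. The other ARID2 peak (chr4:74283095-74283228, 134 bp) lay in intron 10. Its class was nevertheless promoter, since the deposited distance of 559 bp refers to any annotated transcript start and not to the main start of ALB. It lay 439 bp from the nearest SNF5 peak. The 3 SNF5 peaks inside ALB, the one nearest the start included, had scores of 16, 18 and 17, and no ARID peak overlapped them.

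Alpha-fetoprotein (AFP), the fetal counterpart of albumin, had the most peaks of the 9 genes, at 10. Its start lies at chr4:74301938 on the plus strand. The peaks ran from 5151 bp upstream of the start to 20474 bp downstream. In none of the 10 did an ARID peak overlap that of another ARID. Still, the 3 lists met in a tight row within 989 bp, from -3974 to -2986 bp.

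In that row an ARID1A peak of 307 bp (chr4:74297964-74298270) was followed after 42 bp by an ARID1B peak of 420 bp (chr4:74298313-74298732). An ARID2 peak of 204 bp (chr4:74298749-74298952) followed after a further 16 bp. The called peaks thus lay side by side in the order ARID1A, ARID1B, ARID2 towards the gene. Their edges come from broad peak calls on merged replicates, and how exact they are was not tested. A SNF5 peak of 549 bp (chr4:74297902-74298450) overlapped the ARID1A and ARID1B peaks but not the ARID2 peak. Its score of 46 ranked 100 among 20718 SNF5 peaks, and 99.4% of SNF5 peaks scored lower, the highest score near any of the 9 genes.

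At the AFP start itself, an ARID2 peak of 52 bp (chr4:74301890-74301941) spanned the first transcribed base and held the TATAAA match printed above, at -29 to -24 bp. A width of 52 bp was the smallest in the ARID2 list. A SNF5 peak of 585 bp with a score of 25 overlapped it. An ARID1A peak of 160 bp that reached exon 2 began 831 bp downstream (chr4:74302769-74302928), and no SNF5 peak overlapped it.

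The remaining AFP peaks lay in introns, past the gene or farther upstream. ARID2 peaks of 64 bp and 190 bp lay in introns 3 and 4, and an ARID1A peak of 225 bp lay in intron 7. An ARID2 peak of 202 bp lay past the end of the gene (chr4:74322412-74322613). An ARID1A peak of 53 bp (chr4:74296735-74296787), the smallest width in its list, was 5151 bp upstream of the start, lay 1 bp from a SNF5 peak and had the promoter class through another annotated start. In total 3 of the 10 AFP peaks overlapped SNF5.

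Transferrin (TF) carries iron in plasma, and its start lies at chr3:133465237 on the plus strand. It had 4 ARID peaks in a promoter and an upstream group, each overlapped by SNF5. At the promoter an ARID1A peak of 137 bp (chr3:133465152-133465288) lay inside an ARID1B peak of 440 bp (chr3:133464969-133465408), and both spanned the start. The SNF5 peak there was 626 bp wide with a score of 21. Upstream, an ARID2 peak of 153 bp (chr3:133461312-133461464) and an ARID1B peak of 284 bp (chr3:133461540-133461823) lay 3773 and 3414 bp from the start. They were 75 bp apart, did not overlap, and shared a SNF5 peak of 992 bp with a score of 27. The TF promoter stretch was rich in G and C (67.1%), unlike the other stretches of the first set at AHSG (46.3%), ALB (43.5%) and SERPINA1 (35.9%). Another ARID2 peak within 50000 bp of TF was assigned to its neighbour SRPRB, a subunit of the signal recognition particle receptor.

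Transthyretin (TTR) carries thyroid hormone and retinol-binding protein. It was the gene without an assigned ARID peak. Its start lies at chr18:29171840 on the plus strand. The nearest ARID1B peak was 79.6 kb away, in an intron of DSG2, a desmosomal cadherin gene, and the nearest SNF5 peak was 79.1 kb away. The nearest ARID1A and ARID2 peaks were each about 351 kb away. At each of the other 8 genes the nearest SNF5 peak lay at most 2.68 kb from the start.

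**Figure D2:**
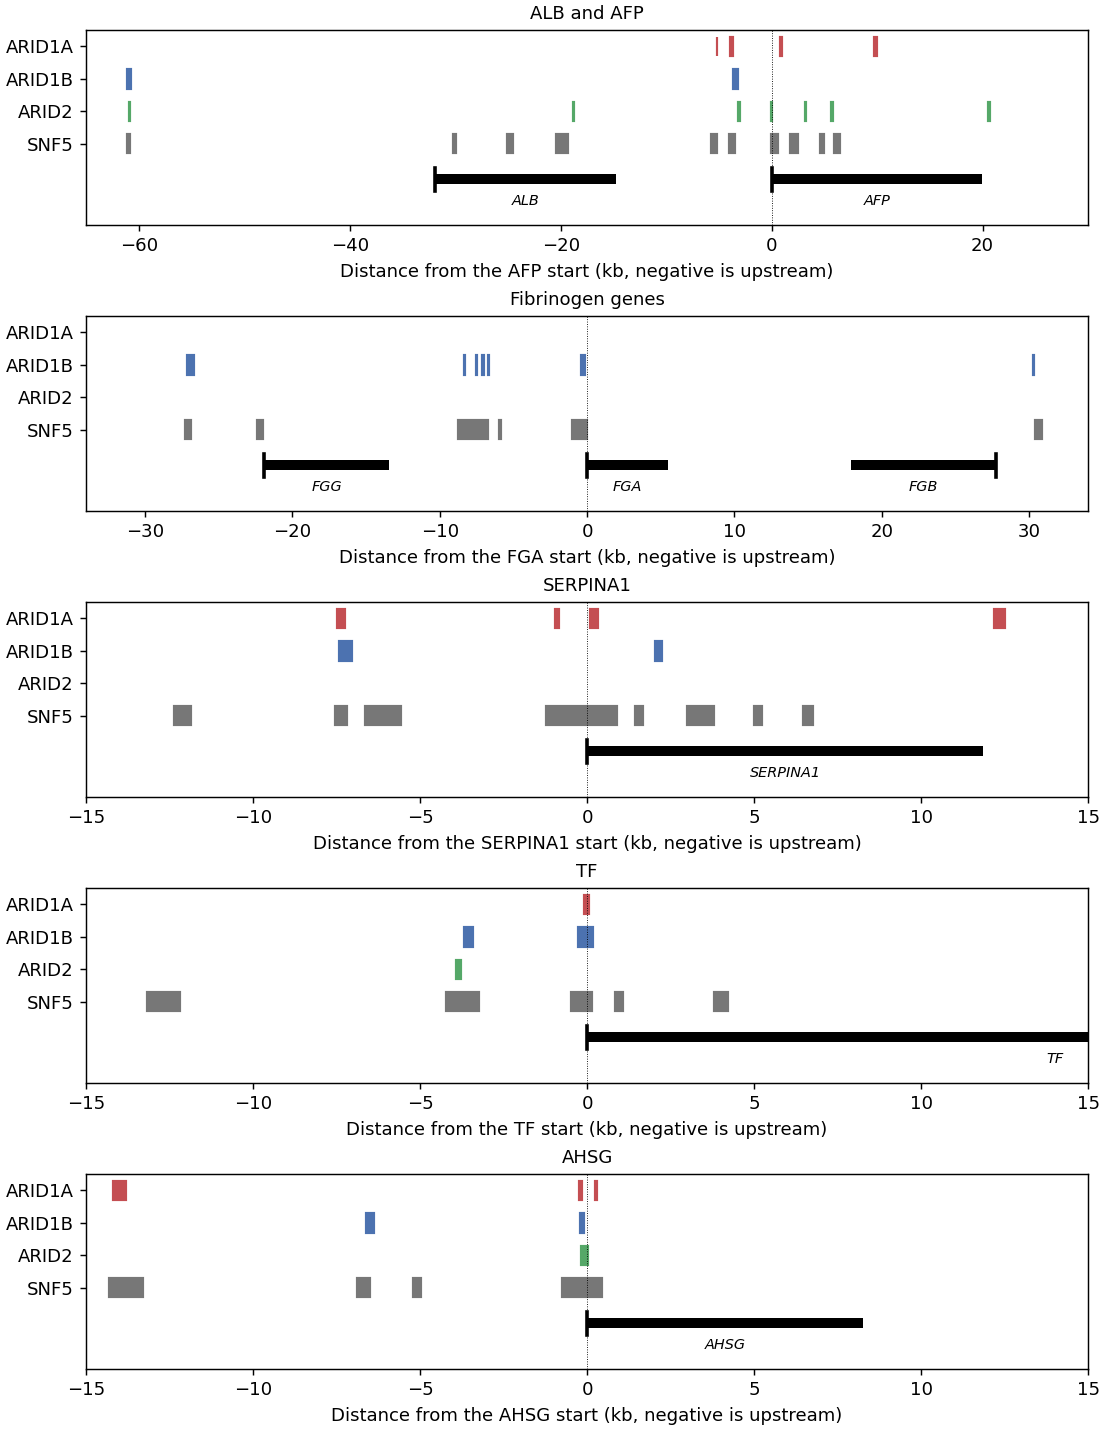
Each panel places peaks of the 4 lists (rows, drawn at their width with a thin outline) by distance from a gene start (x axis, kb, negative is upstream), with genes as black bars and a tick at each start. Called peaks of the 3 ARIDs lie side by side upstream of AFP, ARID1B stands alone at the fibrinogen genes, and ARID2 is missing from the SERPINA1 panel.

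Among the protease inhibitors, alpha-1-antitrypsin (SERPINA1) inhibits neutrophil elastase. Its start lies at chr14:94854939 on the minus strand. It had 4 ARID1A and 2 ARID1B peaks, and no ARID2 peak within 97.4 kb of its start. The ARID1A peaks surrounded the start, with one of 233 bp in intron 1 at 92 bp downstream (chr14:94854615-94854847) and one of 135 bp at 836 bp upstream (chr14:94855775-94855909). A single SNF5 peak of 2152 bp with a score of 22, wider than 95.8% of SNF5 peaks, covered both. The nearest ARID1B peak to the start was 2019 bp downstream, also in intron 1, and lay 343 bp from SNF5.

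Upstream of SERPINA1, the lists converged. An ARID1A peak of 240 bp (chr14:94862195-94862434) and an ARID1B peak of 379 bp (chr14:94861986-94862364) overlapped 7256 and 7047 bp from the start. The SNF5 peak there (344 bp) had a score of 36, ranked 561, and 96.7% of SNF5 peaks scored lower. The stretch shared by ARID1A and ARID1B, printed above, held none of the 7 motifs, as was also the case for the ALB and TF stretches. Just before the TF stretch, however, a C/EBP match at -98 to -91 bp from the TF start lay inside the ARID1B peak. The last ARID1A peak (334 bp) lay downstream of the gene, 12181 bp from the start and 5408 bp from SNF5. An ARID1B peak nearby was assigned to SERPINA2P. In total 4 of the 6 SERPINA1 peaks overlapped SNF5.

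Fetuin-A (AHSG), a member of the cystatin superfamily that binds calcium phosphate in plasma, had the one region of the 9 genes in which peaks of all 3 ARIDs overlapped. Its start lies at chr3:186330849 on the plus strand. The ARID1A peak was 100 bp (chr3:186330605-186330704), the ARID1B peak 123 bp (chr3:186330646-186330768) and the ARID2 peak 198 bp (chr3:186330674-186330871). They were staggered towards the gene in that order, and the ARID2 peak alone reached across the start. A SNF5 peak of 1219 bp covered the 3 of them, with a score of 42 that ranked 200 and exceeded 98.9% of SNF5 peaks.

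The AHSG promoter also held the most motif matches. The HNF4 match, at -179 to -172 bp from the start, lay within the ARID1A and ARID1B peaks. A pair of FOXA matches beginning at -137 and -116 bp lay within the ARID1B and ARID2 peaks. The C/EBP match, at -59 to -52 bp, lay within the ARID2 peak. Beside the overlapping group, AHSG had an ARID1A peak of 56 bp, also in the promoter class, at 238 bp downstream of the start and an ARID1B peak of 253 bp at 6373 bp upstream. All 5 AHSG peaks overlapped SNF5. Further ARID peaks within 50000 bp were assigned to DNAJB11, which encodes a chaperone of the endoplasmic reticulum, and to TBCCD1.

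Fibrinogen, the clot precursor that thrombin turns into fibrin, is built from alpha (FGA), beta (FGB) and gamma (FGG) chains whose genes share a stretch of chromosome 4 from 155484163 to 155534119. The cluster had 7 ARID peaks, and each was from ARID1B. The nearest ARID1A peak was 998 kb from the closest of the 3 starts, and the nearest ARID2 peak about 1100 kb. No peak of the cluster overlapped another ARID, and 5 of the 7 overlapped SNF5.

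FGA had 5 of the 7. The one nearest its start (chr4:155511894, minus strand) was 235 bp wide, began 164 bp upstream and lay in a SNF5 peak of 1046 bp with a score of 25. The other 4 formed a run that began 6653 bp upstream and had widths of 52, 119, 83 and 52 bp. The outer 3 of the run lay in a single SNF5 peak of 1990 bp with a score of 23, wider than 94.8% of SNF5 peaks. The innermost lay 40 bp outside it. Peak 2 held 73.1% G and C, and peak 4 held 38.6%.

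FGB and FGG had 1 ARID1B peak each. At FGB it was 52 bp wide, 2542 bp upstream of the start at chr4:155484163 (plus strand) and 85 bp from SNF5. At FGG it was 461 bp wide (chr4:155538594-155539054), 4786 bp upstream of the start at chr4:155533808 (minus strand). This was the widest of the 35 peaks, wider than 92.0% of ARID1B peaks, and it overlapped a SNF5 peak with a score of 26. Nearer to the FGG start, at 93 bp upstream, a SNF5 peak with a score of 27 had no ARID peak. Of the 7 fibrinogen peaks, 3 were at the minimum width of 52 bp, a width shared by 13.6% of the ARID1B list.

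**Figure D3:**
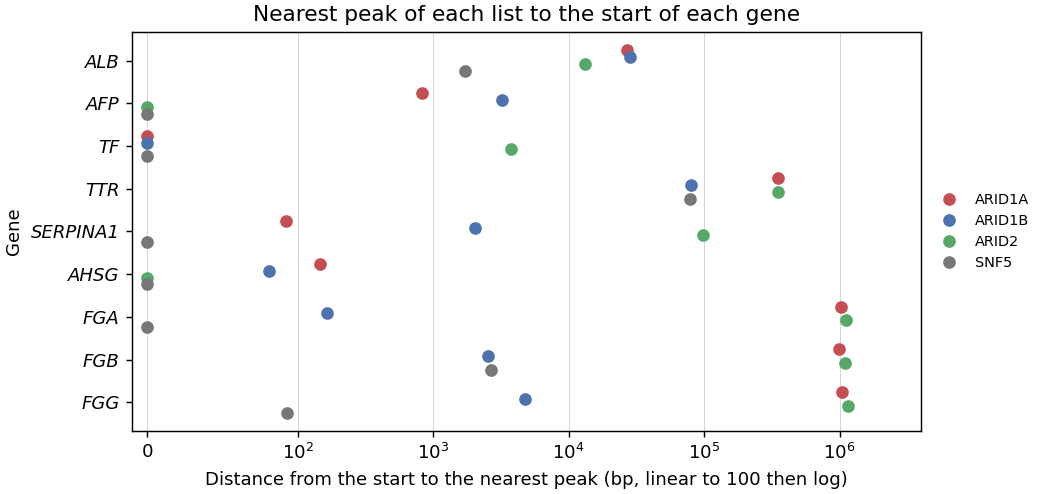
Points give the distance from the start of each gene (y axis) to the nearest peak of each list (x axis, bp, linear up to 100 and logarithmic beyond; 0 means that the peak spans the start). FGA, FGB and FGG had ARID1B within 4.79 kb and ARID1A and ARID2 beyond 998 kb, and TTR lay far from each of the 4 lists.

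Taken over the 35 peaks, overlap with SNF5 was near the background. SNF5 overlapped 23 (65.7%; Wilson 95% interval 49.2% to 79.2%), against 67.6% of all ARID peaks. By list, the shares were 7 of 11 for ARID1A (71.3% of all ARID1A peaks), 12 of 15 for ARID1B (62.9%) and 4 of 9 for ARID2 (67.2%). Such intervals cover counting error over peaks only, and peaks of one locus share a source. Of the 12 peaks without overlap, 9 lay within 1000 bp of a SNF5 peak, and the gap ranged from 1 to 14037 bp with a median of 320.5 bp. Counting gaps of up to 1000 bp, the share was 91.4%, against 83.7% of all ARID peaks. The overlap differed between loci. Without the ALB and AFP locus the share was 81.8%, an alternative chosen after seeing the data.

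Overlap between ARIDs was confined to 4 of the loci. A peak of another ARID overlapped 9 of 35 (25.7%; 14.2% to 42.1%), against 45.5% of all ARID peaks. The shares were 3 of 11 for ARID1A (47.6% in the whole list), 4 of 15 for ARID1B (40.1%) and 2 of 9 for ARID2 (46.9%). The 9 peaks were partners of one another in 4 regions and 10 of the other 26 belonged to AFP, so the interval treats as separate what is not independent. Joined across lists, the 35 peaks made 30 regions. ARID1A held 8 alone, ARID1B 11 and ARID2 7, and the 4 shared regions were those at ALB, TF, SERPINA1 and AHSG. This share depended on how overlap was defined. With peaks at most 1000 bp apart counted, it was 48.6% (69.7% of all ARID peaks). With overlap of at least 50% of both peaks, it was 0 of 35 (16.2%).

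The authors set a promoter class by distance to a transcript start. That class held 13 of 35 (37.1%; 23.2% to 53.7%), against 61.7% of all ARID peaks. By the deposited classes 9 were intronic (25.7%, against 19.9% of all ARID peaks) and 13 distal (37.1%, against 16.3%). None was exonic, a class that held 2.0% of all ARID peaks. These classes refer to any annotated transcript. By the main transcripts, 5 of the 9 intron-class peaks, at AFP and TF, lay upstream of the start, and 6 promoter-class peaks reached an exon. ARID1A had 7 of 11 in the class (72.6% in the whole list), ARID1B 3 of 15 (37.9%) and ARID2 3 of 9 (67.0%). The median deposited distance was 2510 bp for the 35 peaks and 462 bp for all ARID peaks, whereas the median width, 190 and 192 bp, was nearly the same. By list the median widths differed, in both directions. They were 160 against 218 bp for ARID1A, 235 against 164 bp for ARID1B and 153 against 189 bp for ARID2. By the main start of each gene, 11 of the 35 peaks lay under 1000 bp, in 5 genes. Median G and C content was 44.3% in the 35 peaks and 58.9% in all ARID peaks, and the part of base composition in these shares was not tested.

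**Figure D4:**
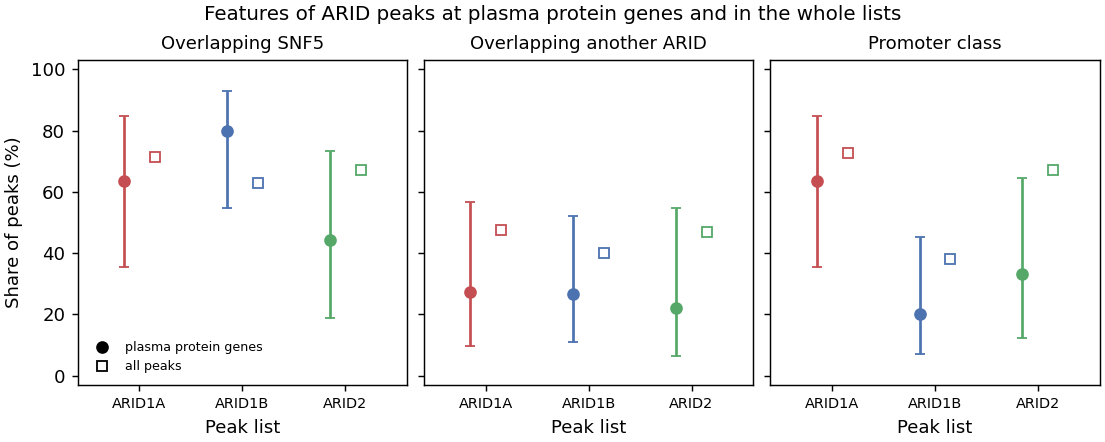
Filled circles give the share (y axis, %) of peaks at the 9 genes and open squares that of whole lists, by ARID list (x axis), for SNF5 overlap, overlap with another ARID and promoter class. Bars are Wilson 95% intervals, for whole lists smaller than the symbols, and the shares overlapping another ARID were 27.3%, 26.7% and 22.2% at these genes against 47.6%, 40.1% and 46.9%.

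Seen from SNF5, 26 peaks lay within 5000 bp of the 9 gene bodies. Of these, 9 (34.6%) overlapped an ARID peak, against 50.9% of all SNF5 peaks. Within 50000 bp the numbers were 15 of 45 (33.3%). Scores ranged from 15 to 46 with a median of 19, which was also the median of the whole list. The highest scores belonged to the AFP upstream peak and the AHSG promoter peak among peaks within 5000 bp, and both carried ARID peaks.

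Promoter sequence was read in RefSeq windows of 300 bases, from 250 before to 50 after a start. Windows at the main start were matched for 8 of the 9 genes (TTR excepted). The HNF1 motif GTTAAT was in 5 of 8 (ALB, AFP, SERPINA1, FGA and FGB), where 6.88% of 35116 RefSeq windows held it. The C/EBP motif TTGCNNAA was in 6 of 8 (ALB, AFP, TF, AHSG, FGA and FGB; 10.5%). The FOXA motif TGTTTGC was in 3 (SERPINA1, AHSG and FGA; 3.89%) and TGTTTAC in 0 (3.42%). TATAAA was in AFP (11.5%), AAAGTCCA in AHSG (1.14%) and TGANTCA in 0 (7.71%). These are matches of letters and not sites of binding. In ALB, FGA, FGB and SERPINA1 no match in these windows lay inside an ARID peak, although those of FGA and SERPINA1 lay inside SNF5 peaks. The matches printed in FGA peak 1 lie farther upstream, beyond the window. At AFP the TATAAA match lay inside an ARID2 peak, but the GTTAAT and TTGCNNAA matches lay inside no ARID peak.

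Around the peaks themselves, windows of 300 bases centred on each of the 35 were compared with those on all 34575 ARID peaks. TTGCNNAA was in 13 (37.1%, against 11.2%), TGTTTGC in 7 (against 5.23%) and TATAAA in 9 (25.7%, against 8.32%). GTTAAT was in 3 (8.57%, against 6.2%), AAAGTCCA in 3 (8.57%, against 2.17%), TGANTCA in 1 (2.86%, against 7.44%) and TGTTTAC in 0 (4.42%). Neighbouring windows overlap at some loci, so 1 match can be counted more than once. Outside the promoter class TTGCNNAA was in 6 of 22 (27.3%), against 16.5% of all such peaks. There TGTTTGC was in 3 (13.6%, against 8.14%) and TATAAA in 5 (22.7%, against 13.2%). GTTAAT was in 2 (9.09%, against 9.66%) and AAAGTCCA in 0 (against 3.73%). TGTTTAC, the other FOXA motif, was in 0 (against 7.26%) and TGANTCA in 1 (4.55%, against 11.7%). The part of base composition in these motif shares was not tested.

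Other plasma protein genes from a wider list gave a comparison without a test. Of 65 further genes, 31 (47.7%) had an ARID peak, near the 40.8% of protein-coding genes. ARID1B peaks were assigned to 32.3% of them, ARID1A peaks to 26.2% and ARID2 peaks to 27.7%. Peaks of all 3 ARIDs were assigned to 7 (10.8%): F2 (prothrombin), RBP4 (the retinol carrier that binds transthyretin), AMBP, ORM1, ORM2, SERPINA3 and ITIH2. Of their 92 peaks, 72.8% overlapped SNF5, 35.9% another ARID and 55.4% were in the promoter class.

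By role, coagulation and fibrinolysis had peaks at 9 of 19 genes. The most were at PROC, the gene of the anticoagulant protein C, with 6 ARID1A, 4 ARID2 and no ARID1B peaks, where the fibrinogen genes had ARID1B peaks and no others. Complement also had peaks at 9 of 19 genes, with at most 2 at any one. Transport, binding and acute phase genes had peaks at 13 of 27, most at SERPINA3 and ITIH2 with 7 each. ORM1 and ORM2, C4A and C4B, and SAA1 and SAA2 are pairs of near-identical copies, so the assignment of reads within each pair is uncertain.

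Genes of other liver functions gave a further background. Of 14 apolipoprotein genes, 11 had an ARID peak and 4 had all 3 ARIDs, and of their 52 peaks 92.3% overlapped SNF5 and 55.8% another ARID. Of 15 hepatocyte transcription factor genes, 13 had an ARID peak and 7 had all 3, and of their 91 peaks 76.9% overlapped SNF5 and 56.0% another ARID. The share overlapping another ARID was therefore lower at the 9 plasma protein genes (25.7%) than in either list, as a description with no test. A low share was not particular to the 9 genes. Among the other plasma protein genes, 4 of 27 coagulation and fibrinolysis peaks and 4 of 16 complement peaks overlapped another ARID. For transport, binding and acute phase genes it was 25 of 49, and the share over the 3 roles was 35.9%.

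**Figure D5:**
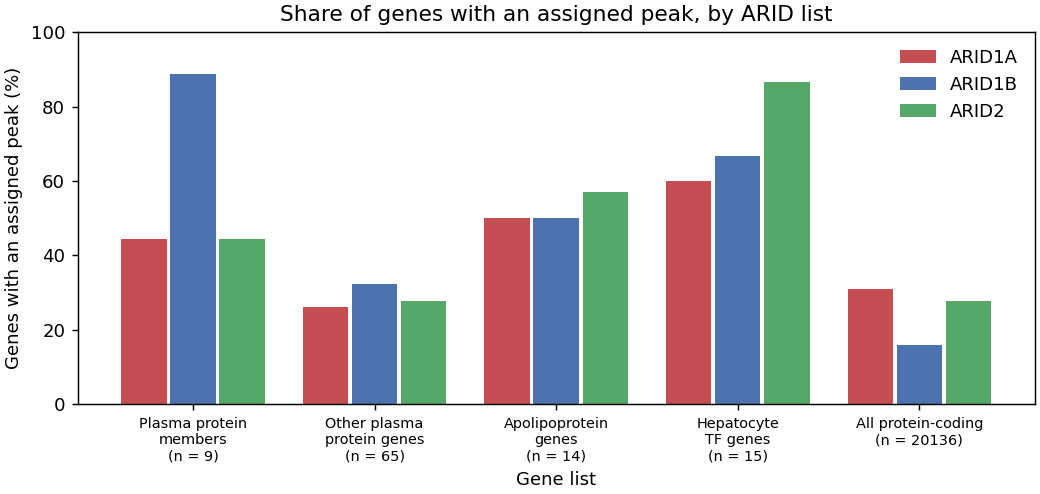
Bars give the percent of genes (y axis) with an assigned peak of each ARID in the 9 plasma protein genes, 65 other plasma protein genes, 14 apolipoprotein genes, 15 hepatocyte transcription factor (TF) genes and 20136 protein-coding genes. ARID1B reached 88.9% of the 9 genes, from 6 loci, and 16.0% of protein-coding genes.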

How the data were processed

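Per the labels, 9 libraries of HepG2 ChIP-seq were grouped by antibody. The authors mapped the reads to hg19 (Bowtie2), merged replicates, called broad peaks with MACS2, joined close peaks, removed blacklisted regions and assigned the nearest Gencode gene. The deposited coordinates and distances are in bp. The deposited SNF5 list also held the score of the peak caller, by which SNF5 peaks were ranked. The deposited chromatin states were not used, since overlapping ARID1A and ARID2 peaks carried the same state for 86.1% of pairs on chromosome 1 but 48.2% elsewhere.

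Overlap meant at least 1 bp. Genes came from Gencode v44 lifted to GRCh37. Of 12428 assigned names, 9314 were found there and 8220 were protein-coding, which lowers the background shares where names had changed. Analyses used Python 3.11.15 with pandas 2.3.3 and scipy 1.17.1, and overlap code was tested on simulated data. No significance test was made. The genes and lists were chosen with earlier results of these data known. Named were the 9 genes, neighbours holding nearby peaks, other plasma protein genes with all 3 ARIDs and those with most peaks per role. Some sequences are not reported here.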

Additional observations from a re-analysis of the deposited data

How the results depend on the processing

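Over 7 results, 37 alternatives were computed (25 planned, 12 added after seeing the data), and 26 stayed within 1.5 times the count or within the interval. Some of the 26 could not have moved. The fibrinogen locus had no ARID1A or ARID2 peaks, so leaving it out kept those counts at 11 and 9. The count of 8 genes with an ARID peak could rise only to 9. ARID1B peaks fell from 15 to 9 when counted within 5000 bp of a gene body and to 8 without the fibrinogen locus. Without the ALB and AFP locus, ARID1A peaks fell from 11 to 7 and ARID2 peaks from 9 to 2. SNF5 overlap, 65.7%, became 17.1% with 50% reciprocal overlap (9.09% of all ARID peaks), 91.4% with gaps of up to 1000 bp (83.7%) and 81.8% without the ALB and AFP locus. Overlap with another ARID, 25.7%, became 0.0% (16.2%), 48.6% (69.7%) and, for midpoints at most 500 bp apart, 42.9% (57.5%). Promoter share, 37.1%, became 68.6% for distances of up to 5000 bp (78.7%). Each of the 9 genes had an ARID peak within 50000 bp of its gene body, which for TTR begins well before the main start. No replicate could be left out, since the deposited lists were called on merged replicates. No paired analysis was possible because the lists carry no replicate numbers. Depth was unknown.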

Other observations

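The deposited chromatin state of a peak depended on the list in which the peak stood. Overlapping ARID1A and ARID1B peaks carried the same state for 86.2% of 218 pairs on chromosome 1 and for 39.3% of 2662 pairs on the other chromosomes. For ARID1A and ARID2 the values were 86.1% of 475 and 48.2% of 5143, and for ARID1B and ARID2 they were 82.0% of 172 and 35.0% of 2286. None of the 9 plasma protein genes lies on chromosome 1, so their states were not read. The cause was not tested.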
